A study of Homo sapiens with 3 samples.

Results

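The genes described here are GAPDH and 9 genes of the same pathway, ALDOA, TPI1, PGK1, ENO1, PKM, LDHA, HK2, PFKP and SLC2A1, which make 10 of the 58333 genes in the deposited table. They were found by matching the Ensembl identifiers of that table to these symbols, and all 10 passed the filter on low values. GAPDH was singled out for its level after transfection of the siRNAs and the other 9 for their place in glycolysis, with results of these data already known, so the differences of the 10 genes are descriptions and are given without p-values. The cells were Cal62, a human thyroid cancer cell line, transfected with siControl, a negative control siRNA, or with siADAR1 #1 or siADAR1 #2, each of which targets ADAR, the gene of the RNA-editing enzyme ADAR1. All were grown in DMEM with serum and transfected with Lipofectamine RNAimax, and poly(A)+ RNA was sequenced as 75-bp paired-end reads. The data are 6 libraries, 2 per siRNA, from 1 line, and the time from transfection to RNA isolation is not given in the sources used here. Both comparisons with siControl use the same 2 siControl libraries.

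Glycolysis breaks glucose down to pyruvate in the cytosol and yields ATP and NADH. Glucose enters through the SLC2A1 transporter, hexokinase (HK2) and phosphofructokinase (PFKP) prime it with phosphate, aldolase (ALDOA) splits it into triose phosphates, triose phosphate isomerase (TPI1) interconverts them, and GAPDH oxidizes glyceraldehyde phosphate and reduces NAD+. PGK1, ENO1 and PKM then lead to pyruvate, and LDHA turns pyruvate into lactate and regenerates NAD+. Tumor cells often run the pathway fast even with oxygen present. HIF1, whose binding sites often hold the letters ACGTG, is a known activator of many of its genes. GAPDH is also a common reference gene and loading control. The study used it as the loading control of some of its western blots, among them those of ADAR1 silencing. Its list of qPCR primers also includes GAPDH. Blots measure protein, whereas the values here are RNA.

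The 250 bases before the start of transcription of 4 of these genes are shown because ALDOA, LDHA and PKM were, with GAPDH, the genes that differed most between the siRNAs, whereas PGK1, the enzyme of the step after GAPDH, differed little. They were read 5' to 3' on the strand of the gene from GRCh38 at the Ensembl canonical start in GENCODE release 44. Capitals mark ACGTG or its complement on the other strand.
ALDOA, chr16:30065510-30065759, + strand: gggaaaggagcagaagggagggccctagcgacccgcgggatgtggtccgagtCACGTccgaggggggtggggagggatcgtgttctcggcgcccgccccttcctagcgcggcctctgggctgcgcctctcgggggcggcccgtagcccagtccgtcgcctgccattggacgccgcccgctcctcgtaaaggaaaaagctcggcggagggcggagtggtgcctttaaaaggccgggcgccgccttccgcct
LDHA, chr11:18394313-18394562, + strand: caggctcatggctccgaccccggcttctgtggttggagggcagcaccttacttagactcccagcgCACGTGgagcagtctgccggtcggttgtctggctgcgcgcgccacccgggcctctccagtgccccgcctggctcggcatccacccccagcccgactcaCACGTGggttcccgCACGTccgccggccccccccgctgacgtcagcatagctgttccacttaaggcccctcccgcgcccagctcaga
PKM, chr15:72231191-72231440, - strand: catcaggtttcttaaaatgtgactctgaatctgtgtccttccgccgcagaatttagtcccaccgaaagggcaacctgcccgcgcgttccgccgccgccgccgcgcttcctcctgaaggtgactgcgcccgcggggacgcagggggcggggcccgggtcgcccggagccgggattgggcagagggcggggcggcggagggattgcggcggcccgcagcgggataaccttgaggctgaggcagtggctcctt
PGK1, chrX:78103998-78104247, + strand: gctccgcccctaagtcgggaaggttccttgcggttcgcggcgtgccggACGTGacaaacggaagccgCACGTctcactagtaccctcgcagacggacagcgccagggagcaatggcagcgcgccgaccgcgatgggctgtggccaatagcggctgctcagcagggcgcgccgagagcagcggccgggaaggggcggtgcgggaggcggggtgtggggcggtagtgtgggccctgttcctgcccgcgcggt
The letters ACGTG, searched on both strands, stood in the windows of 4 of the 9 genes other than GAPDH (ALDOA, PGK1, LDHA and HK2), and in 22.5% of the windows of 14359 tested protein-coding genes. The E-box CACGTG, which contains ACGTG on each strand, stood in the LDHA window alone among the 9, where it occurred at 2 positions, and in 8.80% of all windows. The GC box GGGCGG stood in 8 of the 9, all but LDHA, and in 69.2% of all windows. ALDOA and LDHA shared the ACGTG letters with PGK1 and HK2, whose log2 fold changes (log2FC) with siADAR1 #2 were -0.08 and 0.12. The PKM window did not hold these letters. Other forms of the HIF1 site were not searched, so these are counts of ACGTG alone. A match of letters does not show binding, and the part of HIF1 in these levels was not tested.

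The libraries held from 30114840 to 50029763 reads on genes, and the 10 most abundant genes of a library took 5.51% to 7.51% of them. ADAR itself had 10906 and 11701 normalized counts with siControl, 1328 and 2246 with siADAR1 #1 and 1663 and 2928 with siADAR1 #2. ADAR thus fell by 2.71 on the log2 scale with siADAR1 #1 (limma, adjusted p = 0.00295) and by 2.35 with siADAR1 #2 (limma, adjusted p = 0.00128), and the siRNAs did not differ in it past the threshold (log2FC of -0.35, standard error 0.30, limma, adjusted p = 0.404). Of 9 thyroid markers, NKX2-1 had no read in any library, whereas PAX8 was abundant and made up almost all of their sum. The sum was 14318 to 16139 normalized counts with siControl, 10543 to 15240 with siADAR1 #1 and 2832 to 5719 with siADAR1 #2. The 5 epithelial markers summed to 67785 to 106204 in the 6 libraries. Among 5 leukocyte, 4 endothelial and 5 fibroblast markers, the leukocyte sum stayed between 27.2 and 133.7 and the endothelial sum between 93.8 and 173.9, and the fibroblast sum, almost all COL1A1, lay between 2790 and 6860. In bulk RNA, fewer cells that express a gene and less RNA per cell cannot be told apart.

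Levels are given as normalized counts, the read counts divided by the size factor of the library. Levels of different genes are set side by side per kilobase of exon. The length merged all annotated exons of a gene, 2396 bases for GAPDH and 8572 for PKM. Order and ranks per kilobase thus also depend on the annotation. In normalized counts with siControl, LDHA (65991) and ENO1 (59853) stood above TPI1 (33337). With siControl, GAPDH was the highest of the 10 at 61320 normalized counts per kilobase and ranked 24 of 20710 genes. PKM followed at 14487, TPI1 at 12347, ENO1 at 11475, LDHA at 10951, ALDOA at 9410 and PGK1 at 5208 per kilobase, and the ranges of TPI1 and ENO1 and those of ENO1 and LDHA overlapped. PFKP (1026), SLC2A1 (808) and HK2 (300) were much lower per kilobase, so that the transporter and the kinases of the early steps stood below every enzyme of the later steps. With siADAR1 #2, GAPDH stayed the highest at 30425 per kilobase, rank 30, whereas ALDOA moved from rank 143 to rank 1389 and LDHA from rank 123 to rank 773. The 10 genes together took 1.01% and 1.02% of the reads with siControl, 0.915% and 0.957% with siADAR1 #1, and 0.602% and 0.628% with siADAR1 #2.

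**Figure D1:**
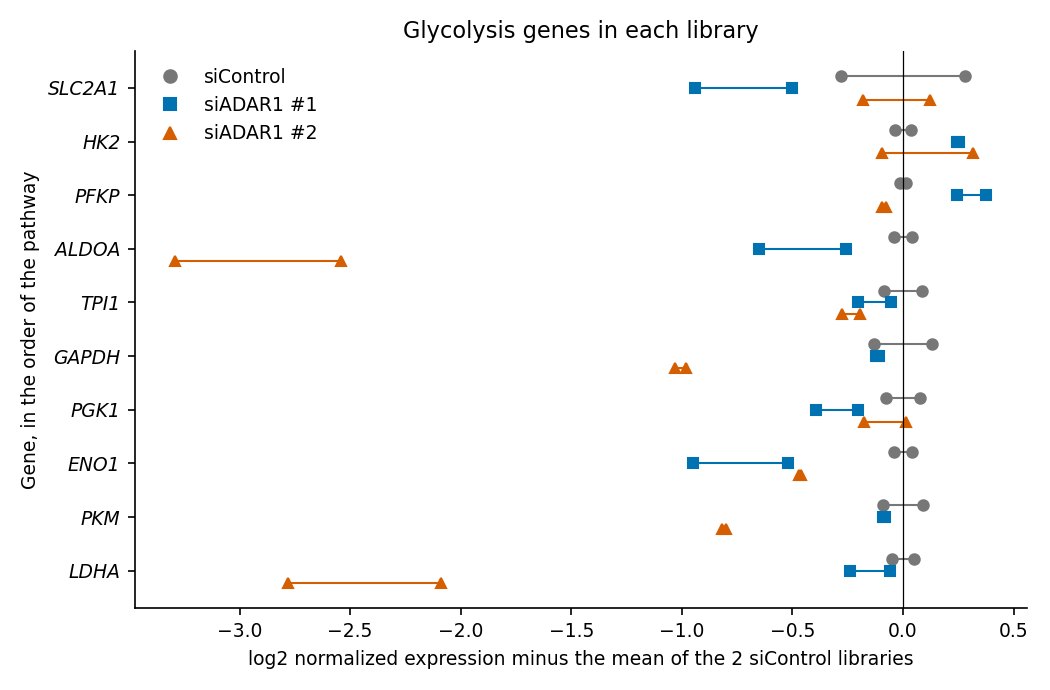
Each symbol is 1 library, and the horizontal axis gives the deposited log2 value of a gene minus the mean of its 2 siControl libraries, with a line joining the 2 libraries of a group; genes are listed in the order of the pathway. ALDOA, LDHA, GAPDH and PKM with siADAR1 #2 lie to the left of all other libraries of the same gene, and SLC2A1 and ENO1 lie to the left with siADAR1 #1.

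With siADAR1 #2, GAPDH was at 49.6% of its siControl mean, and with siADAR1 #1 at 92.3%. GAPDH (ENSG00000111640, chr12:6534512-6538374, + strand) had 159928 and 133918 normalized counts with siControl, 136051 and 135155 with siADAR1 #1, and 71470 and 74328 with siADAR1 #2. The siADAR1 #1 libraries lay between the siControl libraries, and both siADAR1 #2 libraries lay below all others. The log2FC was -0.11 with siADAR1 #1 and -1.01 with siADAR1 #2, and 0.90 for siADAR1 #1 minus siADAR1 #2, each with a standard error of 0.12. The study's thresholds, an adjusted p under 0.05 and a log2FC beyond 0.5, were met with siADAR1 #2 and between the siRNAs, and not with siADAR1 #1. With quantile normalization the log2FC with siADAR1 #2 was -0.60, and with median-centred libraries, which moved the median log2FC of all genes with siADAR1 #1 from -0.02 to 0.12, the value of GAPDH with siADAR1 #1 was 0.04. GAPDH took 0.299% and 0.284% of all reads with siControl, 0.291% and 0.282% with siADAR1 #1, and 0.158% and 0.169% with siADAR1 #2, so both siADAR1 #2 libraries were also the lowest as a share of all reads, and siADAR1 #1 replicate 2 lay just below both siControl libraries on that scale. The summed thyroid markers, almost all PAX8, were also lower in both siADAR1 #2 libraries (2832 and 5719) than in any other. Singly, the 6 tested thyroid markers went both ways with siADAR1 #2. PAX8, FOXE1, SLC26A4 and SLC5A5 stood at 26.9%, 41.6%, 63.5% and 96.3% of siControl, and TSHR and TG at 140% and 289%. All but PAX8 had low counts. The part of these markers in the level of GAPDH and the other genes was not tested.

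The transporter and the kinases that prime glucose showed no such loss with siADAR1 #2. SLC2A1 (ENSG00000117394, chr1:42925353-42958893, - strand), which brings glucose into most cells, had 6361 and 4328 normalized counts with siControl, 3719 and 2738 with siADAR1 #1 and 5709 and 4640 with siADAR1 #2. It was at 60.4% of the siControl mean with siADAR1 #1 and at 96.8% with siADAR1 #2, and its siControl libraries differed more from each other than those of any other of the 10 genes. Its log2FC was -0.72 with siADAR1 #1, -0.03 with siADAR1 #2 and -0.69 for siADAR1 #1 minus siADAR1 #2 (standard error 0.22). HK2 (ENSG00000159399, chr2:74834127-74893359, + strand), the hexokinase most tied to tumor glycolysis, had 1816 and 1729 normalized counts with siControl, 2119 and 2108 with siADAR1 #1 and 2215 and 1664 with siADAR1 #2. Both siADAR1 #1 libraries were above siControl, whereas the siADAR1 #2 libraries lay on both sides of it, with log2FC values of 0.25 and 0.12 (standard error 0.16). PFKP (ENSG00000067057, chr10:3066333-3137718, + strand), the platelet form of the enzyme that commits sugar to glycolysis, had 8061 and 7894 normalized counts with siControl, 9449 and 10386 with siADAR1 #1 and 7609 and 7485 with siADAR1 #2. Its 3 groups did not overlap, in the order siADAR1 #1, siControl and siADAR1 #2, and the log2FC was 0.31 with siADAR1 #1, -0.08 with siADAR1 #2 and 0.39 between the siRNAs (standard error 0.10).

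At the split of the sugar, ALDOA was far lower with siADAR1 #2 and TPI1 was not. ALDOA (ENSG00000149925, chr16:30064164-30070457, + strand), the aldolase of muscle and most tumors, had 37055 and 35007 normalized counts with siControl, 23058 and 30081 with siADAR1 #1 and 3684 and 6203 with siADAR1 #2. The 3 groups did not overlap, siADAR1 #2 stood at 13.7% of siControl and siADAR1 #1 at 73.7%, and the 2 siADAR1 #2 libraries differed by 0.75 on the log2 scale. Its log2FC was -0.45 with siADAR1 #1 and -2.91 with siADAR1 #2, with a standard error of 0.23, and 2.46 for siADAR1 #1 minus siADAR1 #2. TPI1 (ENSG00000111669, chr12:6867119-6870948, + strand) had 35253 and 31421 normalized counts with siControl, 29016 and 31991 with siADAR1 #1 and 29174 and 27579 with siADAR1 #2. Its siADAR1 #2 libraries were below siControl at 85.1% of the mean, and its siADAR1 #1 libraries overlapped both other groups, with log2FC values of -0.13 and -0.23 (standard error 0.11). TPI1 starts 332.6 kb from the start of GAPDH on the same chromosome.

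Past GAPDH, PGK1 was close to siControl with siADAR1 #2 and ENO1 was lower with both siRNAs. PGK1 (ENSG00000102144, chrX:77910739-78129295, + strand), which makes the first ATP of the pathway, had 29807 and 26828 normalized counts with siControl, 21449 and 24422 with siADAR1 #1 and 28469 and 25017 with siADAR1 #2. The siADAR1 #1 libraries were below both other groups at 81.0% of siControl, and the log2FC was -0.31 with siADAR1 #1 and -0.08 with siADAR1 #2 (standard error 0.12). ENO1 (ENSG00000074800, chr1:8861000-8879190, - strand), the enolase of most tissues, had 61523 and 58182 normalized counts with siControl, 31094 and 41715 with siADAR1 #1 and 43349 and 43562 with siADAR1 #2. It was below siControl in all 4 siADAR1 libraries, at 60.8% with siADAR1 #1 and 72.6% with siADAR1 #2. Its log2FC was -0.73 with siADAR1 #1, past both thresholds, -0.46 with siADAR1 #2, short of the threshold on the log2FC, and -0.27 between the siRNAs (standard error 0.14). With quantile normalization the value with siADAR1 #2 was -0.22, and without siADAR1 #1 replicate 1 the difference between the siRNAs was -0.06.

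At the end of the pathway, PKM followed GAPDH and LDHA followed ALDOA. PKM (ENSG00000067225, chr15:72199029-72231819, - strand), pyruvate kinase, had 132079 and 116291 normalized counts with siControl, 116233 and 117634 with siADAR1 #1 and 70279 and 71230 with siADAR1 #2. Only the siADAR1 #2 libraries stood apart, at 57.0% of siControl, with log2FC values of -0.08 and -0.81 and a difference of 0.72 between the siRNAs (standard error 0.11). With quantile normalization the log2FC of PKM with siADAR1 #2 was -0.36 and was not called. The values are sums over transcripts, so the alternative M1 and M2 forms of PKM are not separated. LDHA (ENSG00000134333, chr11:18394560-18408425, + strand) had 68353 and 63629 normalized counts with siControl, 55700 and 63168 with siADAR1 #1 and 9634 and 15494 with siADAR1 #2. All 3 groups were apart, but siADAR1 #1 only narrowly at 90.1% of siControl, whereas siADAR1 #2 stood at 19.0%. The log2FC of LDHA was -0.15 with siADAR1 #1, -2.43 with siADAR1 #2 and 2.28 between the siRNAs (standard error 0.20).

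**Figure D2:**
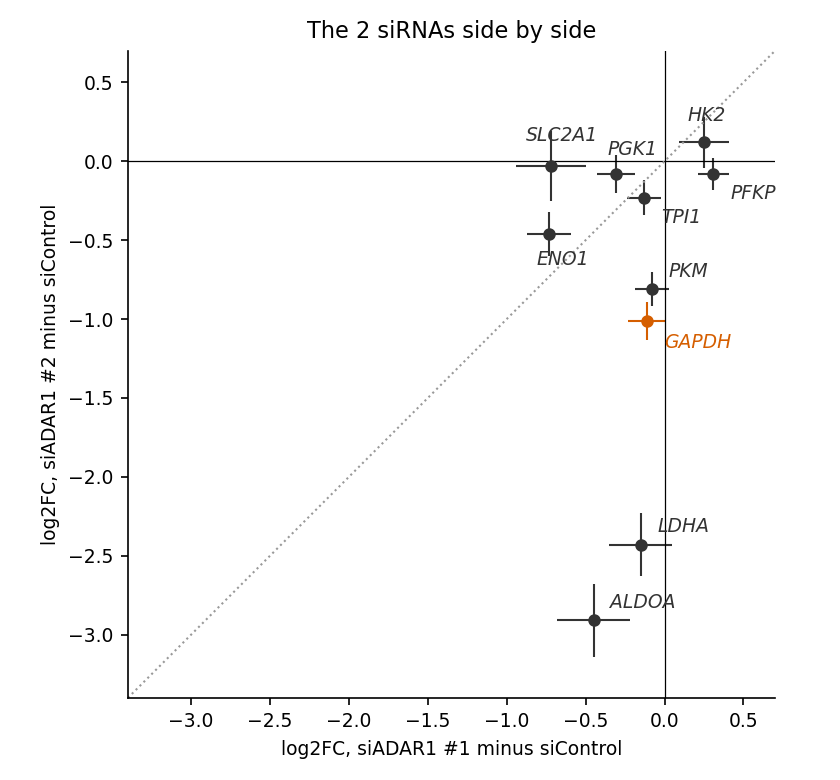
Each point is 1 of the 10 genes, with its log2FC against siControl for siADAR1 #1 on the horizontal axis and for siADAR1 #2 on the vertical axis, bars of 1 standard error and a dotted line of equal values; both axes share the siControl libraries, so the position along the dotted line is not independent evidence. GAPDH (-0.11 and -1.01) lies beside PKM (-0.08 and -0.81), LDHA and ALDOA lie far below the line, and SLC2A1 and ENO1 are the lowest on the horizontal axis.

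With siADAR1 #1, 1 of the 10 genes (ENO1) was called lower, where 10.6% of 20858 tested genes were called lower and 6.18% higher. With the replicate number as a block, SLC2A1 was called lower as well, which made 2. The call of ENO1 ended when either siControl library was left out (log2FC of -0.69 and -0.77) and when siADAR1 #1 replicate 1 was (-0.52). With siADAR1 #2, 4 of the 10 (GAPDH, ALDOA, PKM and LDHA) were called lower, where 15.5% of tested genes were called lower and 11.1% higher, and these 4 were also the genes called with each library left out in turn. For siADAR1 #1 minus siADAR1 #2, these 4 were called higher and SLC2A1 lower, where 16.1% of tested genes were called higher and 16.7% lower. The call of SLC2A1 between the siRNAs ended when either siADAR1 #2 library was left out (-0.54 and -0.84) and when siADAR1 #1 replicate 2 was (-0.47). Since GAPDH was chosen on these contrasts and the others with them known, nothing is read from these counts against the shares of all genes.

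Within the pathway, GAPDH moved with the middle of the other 9 genes when siADAR1 #1 was used, and below it when siADAR1 #2 was used. With siADAR1 #1 the other 9 had log2FC values from -0.73 to 0.31 with a median of -0.15, and GAPDH lay 0.04 above that median. With siADAR1 #2 they ranged from -2.91 to 0.12 with a median of -0.23, and GAPDH lay at -0.78 from it. The median over all genes tested was -0.02 with siADAR1 #1 and -0.01 with siADAR1 #2. Within a library, where scaling cancels, the deviation of GAPDH from its siControl mean less the median deviation of the other 9 was 0.08 and -0.08 with siControl, 0.14 and -0.04 with siADAR1 #1, and -0.84 and -0.71 with siADAR1 #2. With siADAR1 #2, where GAPDH stood at 49.6% of siControl, ALDOA, LDHA and PKM stood at 13.7%, 19.0% and 57.0%, whereas TPI1 and PGK1, the enzymes on either side of its step, stood at 85.1% and 94.4%. The log2 ratio of GAPDH to PKM per kilobase varied little, from 1.86 to 2.12 over the 6 libraries. By contrast the log2 ratio of GAPDH to PGK1 was 3.61 and 3.50 with siControl and 2.51 and 2.75 with siADAR1 #2, and that of GAPDH to LDHA was 2.56 and 2.40 with siControl and 4.22 and 3.59 with siADAR1 #2.

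Several steps have more than 1 isoenzyme, and their balance shifted with 1 siRNA or the other. LDHB, the lactate dehydrogenase subunit typical of heart, had 38077 and 34348 normalized counts with siControl, 25412 and 28357 with siADAR1 #1 and 23869 and 24947 with siADAR1 #2, and fell by 0.57 on the log2 scale with siADAR1 #2 (limma, adjusted p = 0.00714), a call that ended without siControl replicate 1 (-0.49) or siADAR1 #2 replicate 1 (-0.54). With quantile normalization the log2FC of LDHB with siADAR1 #2 was -0.38 and was not called. The log2 ratio of LDHA to LDHB per kilobase was -0.17 and -0.12 with siControl and 0.12 and 0.14 with siADAR1 #1. This ratio was -2.32 and -1.70 with siADAR1 #2. Per kilobase, LDHA and LDHB were thus near parity in 4 libraries and LDHB prevailed in 2. In normalized counts with siControl, LDHA averaged 65991 and LDHB 36212, over 6026 and 2983 bases of merged exons. PFKL, the liver form of phosphofructokinase, had 2190 and 2135 normalized counts with siControl, 582 and 1079 with siADAR1 #1 and 2384 and 2495 with siADAR1 #2, a log2FC of -1.45 with siADAR1 #1 (limma, adjusted p = 0.00957) that was no longer called without siControl replicate 1 (-1.43) or siControl replicate 2 (-1.46). With PFKP higher and PFKL lower, the log2 ratio of PFKP to PFKL per kilobase was 2.08 and 2.09 with siControl, 4.22 and 3.47 with siADAR1 #1 and 1.87 and 1.78 with siADAR1 #2. PFKM, the muscle form, had a log2FC of -0.52 with siADAR1 #1 and -0.26 with siADAR1 #2 (limma, adjusted p = 0.115 and 0.386), and the first was called with the replicate number as a block (limma, adjusted p = 0.0382).

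HKDC1, a hexokinase-like protein, was almost silent with siControl, with 5 and 2 reads, and had 9 and 11 reads with siADAR1 #1 and 428 and 424 reads with siADAR1 #2. It was called higher with siADAR1 #2 (log2FC of 6.59, standard error 0.42, limma, adjusted p = 0.000256), a value that depends on how the few siControl reads are transformed. HKDC1 passed the filter on low values only through its siADAR1 #2 libraries, so its adjusted p is not independent support. Per kilobase HKDC1 stayed below HK2 even with siADAR1 #2, at log2 ratios of -1.70 and -0.93. HK1, the hexokinase of most tissues, was higher than HK2 per kilobase in every library, with log2FC values of 0.23 and 0.23 (limma, adjusted p = 0.20 and 0.176). ALDOC, the brain aldolase, had only 71.4 to 83.9 normalized counts with siControl and a log2FC of -1.5 with siADAR1 #2 (limma, adjusted p = 0.00734), a call that ended without siControl replicate 1 (-1.39). ENO2, the neuronal enolase, had log2FC values of 0.45 and 0.61 (limma, adjusted p = 0.177 and 0.0583), the latter called with the replicate number as a block (limma, adjusted p = 0.0268), and the log2 ratio of ENO1 to ENO2 per kilobase was 5.15 and 4.45 with siControl and 3.55 to 3.78 in the 4 siADAR1 libraries.

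**Figure D3:**
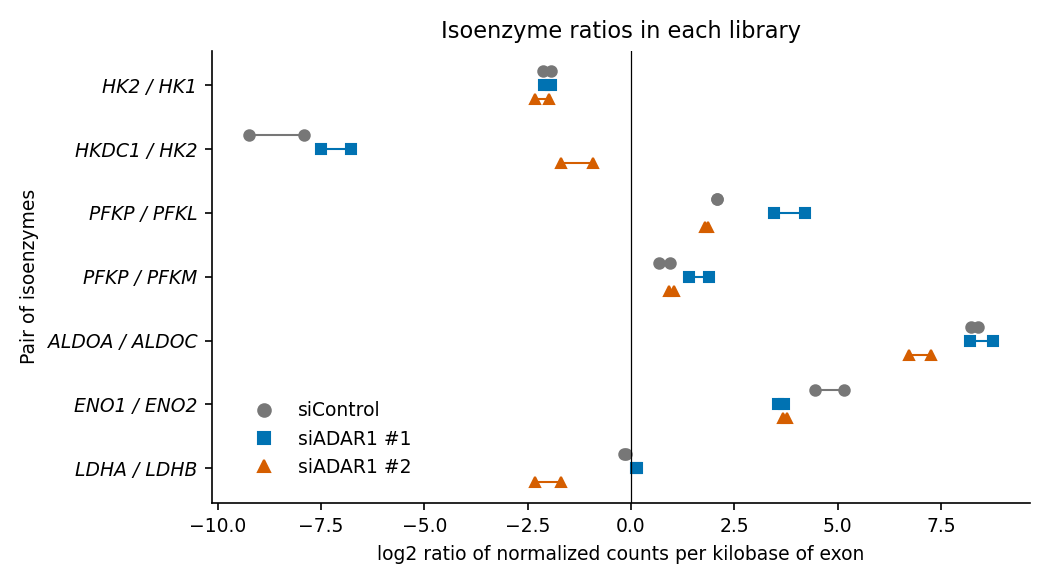
Each symbol is 1 library, and the horizontal axis is the log2 ratio of the normalized counts per kilobase of exon of 2 isoenzymes, with a line joining the libraries of a group. The ratio of LDHA to LDHB is lowest and that of HKDC1 to HK2 highest with siADAR1 #2, and the ratio of PFKP to PFKL is highest with siADAR1 #1.

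The rest of glucose metabolism was described from 6 lists with 96 genes, 81 of them tested. With siADAR1 #1, 2 were called higher and 12 lower, with a median log2FC of -0.25, and with siADAR1 #2, 7 were called higher and 17 lower, with a median of -0.11. The siRNAs differed in 36 of the 81, 16 higher and 20 lower with siADAR1 #1. Over all genes tested, 16.8% were called in either direction with siADAR1 #1, 26.6% with siADAR1 #2 and 32.8% between the siRNAs, and more were called lower than higher in each comparison, so the counts with each siRNA against siControl were near the background. TXNIP and PDK1 were the 2 genes of these lists called with both siRNAs, each in opposite directions. Without siControl replicate 1 the calls with siADAR1 #1 went from 14 to 1, MLXIP, and without siControl replicate 2 they went to 7 and without siADAR1 #1 replicate 1 to 9, so each siADAR1 #1 call named here other than MLXIP rested on siControl replicate 1. With siADAR1 #2 the calls ranged from 19 to 25 when a library was left out. Among the genes named here, PDK1 and SLC2A10 with siADAR1 #2 lost their calls without either siControl library and without siADAR1 #2 replicate 1, SLC16A8 without siControl replicate 1 or either siADAR1 #2 library, and VHL without siControl replicate 2 or siADAR1 #2 replicate 1. PDK1 also lost it without siADAR1 #2 replicate 2.

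Among the other glycolytic enzymes, 16 of 22 were tested, of which 1 (PFKL) was called lower with siADAR1 #1, and 1 (HKDC1) higher and 4 lower with siADAR1 #2. Those lower were GPI, the isomerase between the kinases, at 17905 and 16741 normalized counts with siControl and 7714 and 8844 with siADAR1 #2 (log2FC of -1.07, limma, adjusted p = 0.00123), BPGM, which makes bisphosphoglycerate (-1.20, limma, adjusted p = 0.00135), LDHB and ALDOC. PGAM1, the mutase between PGK1 and ENO1, had log2FC values of -0.10 and 0.08 (limma, adjusted p = 0.593 and 0.662). In the order of the pathway with siADAR1 #2, GPI, ALDOA, GAPDH, PKM and LDHA were called lower, and HK2, PFKP, TPI1, PGK1, PGAM1 and ENO1 were not.

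Of 16 regulators of glycolysis, 13 were tested, with 3 called lower with siADAR1 #1, and 3 higher and 1 lower with siADAR1 #2. PFKFB2, an enzyme that makes the activator of phosphofructokinase, had 516 and 598 normalized counts with siControl, 356 and 408 with siADAR1 #1 and 3665 and 2826 with siADAR1 #2 (log2FC of 2.53, limma, adjusted p = 0.000259). Its paralog PFKFB3 fell by 0.68 with siADAR1 #2 (limma, adjusted p = 0.00523). TXNIP, which restrains glucose uptake, fell by 1.12 on the log2 scale with siADAR1 #1 (limma, adjusted p = 0.0338) and had a log2FC of 1.61 with siADAR1 #2 (limma, adjusted p = 0.00505). MLXIP, a glucose-responsive transcription factor that drives TXNIP, fell by 1.29 with siADAR1 #1 (limma, adjusted p = 0.00236). Of the hypoxia pathway, ARNT, the partner of HIF1A, fell by 0.62 with siADAR1 #1 (limma, adjusted p = 0.0164) and VHL, which marks HIF1A for degradation, had a log2FC of 0.57 with siADAR1 #2 (limma, adjusted p = 0.00816). The call of ARNT ended with median-centred or quantile-normalized libraries (-0.48 and -0.49). HIF1A itself had log2FC values of 0.10 and 0.35 (limma, adjusted p = 0.660 and 0.0939).

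Of 15 other transporters of glucose and lactate, 13 were tested. With siADAR1 #1, 0 passed both thresholds in limma without the block or in voom, and 3 had an unadjusted p under 0.05. SLC2A6, a hexose transporter, was called higher with the replicate number as a block (log2FC of 0.57, limma, adjusted p = 0.0261) and with median-centred or quantile-normalized libraries. With siADAR1 #2, 1 was called higher and 2 lower. SLC16A1, a carrier that moves lactate and pyruvate across the plasma membrane, had 9685 and 8870 normalized counts with siControl, 11255 and 10447 with siADAR1 #1 and 4205 and 4815 with siADAR1 #2 (log2FC of -1.04, limma, adjusted p = 0.000809). SLC2A10 fell by 1.09 (limma, adjusted p = 0.0299) and SLC16A8, another lactate carrier, had a log2FC of 1.11 (limma, adjusted p = 0.0289), both from low counts. SLC16A3, the lactate exporter of glycolytic cells, had log2FC values of -0.36 and -0.38 (limma, adjusted p = 0.331 and 0.272), and SLC2A3, a glucose transporter of neurons, -0.30 and 0.62 (limma, adjusted p = 0.653 and 0.279).

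Of 19 genes that handle pyruvate after glycolysis or return it to glucose, 16 were tested, with 2 called higher and 3 lower with siADAR1 #1, 2 higher and 5 lower with siADAR1 #2, and 5 higher and 5 lower between the siRNAs. With siADAR1 #2, MPC2, a subunit of the mitochondrial pyruvate carrier, fell by 1.58 (limma, adjusted p = 0.000416), and PDHA1 and DLAT, subunits of pyruvate dehydrogenase, had log2FC values of -0.89 and -0.75 (limma, adjusted p = 0.00161 and 0.00189). PCK2, the mitochondrial PEP carboxykinase, had a log2FC of 0.94 with siADAR1 #2 (limma, adjusted p = 0.00475). With siADAR1 #1, PC, pyruvate carboxylase, fell by 1.72 (limma, adjusted p = 0.00635), PDP1 and PDK2 had log2FC values of -0.97 and -1.03 (limma, adjusted p = 0.0111 and 0.0125), and PDP2 had a log2FC of 0.71 (limma, adjusted p = 0.0111). PCK2 with siADAR1 #1 and PDP1 with siADAR1 #2 missed the thresholds without the replicate number as a block. With the block they were called (log2FC of 0.54 and 0.50, limma with the block, adjusted p = 0.0242 and 0.0327). PCK2 was also called with a filter at 50 and with median-centred or quantile-normalized libraries, and PDP1 with quantile normalization. PDK1, a kinase that turns pyruvate dehydrogenase off, had log2FC values of 0.84 with siADAR1 #1 and -0.59 with siADAR1 #2 (limma, adjusted p = 0.0183 and 0.0423).

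In the pentose phosphate pathway, which branches off before aldolase, 7 of 8 genes were tested, and 3 were called lower with siADAR1 #1 and 2 lower with siADAR1 #2. With siADAR1 #1 these included TKT (transketolase) and PGLS, with log2FC values of -1.57 and -0.59 (limma, adjusted p = 0.00552 and 0.0473). PGLS lost its call under most alternatives, with a log2FC of -0.44 with median-centred libraries, -0.41 with quantile normalization and -0.39 without siADAR1 #1 replicate 1. With siADAR1 #2 they were RPIA and RPE, which interconvert pentose phosphates, at -1.45 and -1.23 (limma, adjusted p = 0.000441 and 0.000813). Of 16 TCA cycle genes, all tested, 2 were called lower with siADAR1 #1, SUCLG2 (-0.78, limma, adjusted p = 0.00861) and MDH2 (-0.52, limma, adjusted p = 0.0153). The call of MDH2 ended with median-centred or quantile-normalized libraries (-0.38 and -0.48). With siADAR1 #2, 3 TCA cycle genes were called lower, among them SDHD, a membrane subunit of succinate dehydrogenase (-2.25, limma, adjusted p = 0.000259), and CS, citrate synthase (-1.28, limma, adjusted p = 0.000441).

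**Figure D4:**
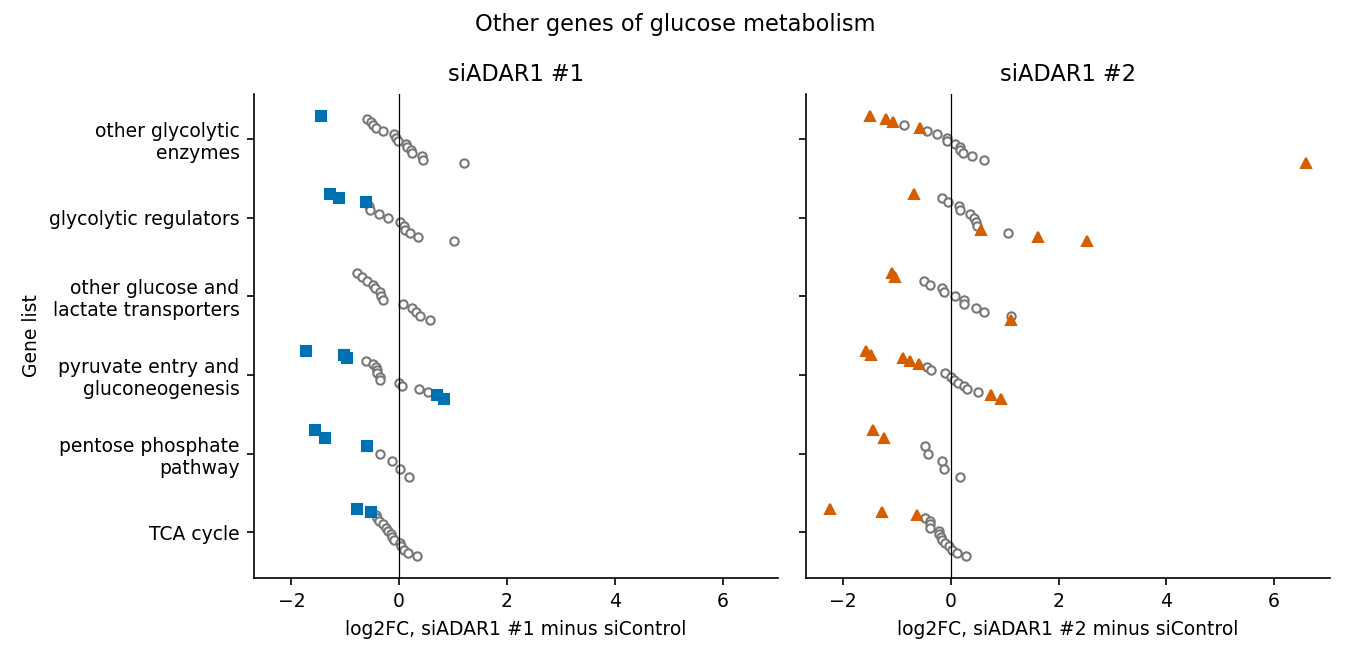
Each symbol is 1 tested gene of a list, placed by its log2FC against siControl with siADAR1 #1 (left) or siADAR1 #2 (right); filled symbols passed both thresholds and open circles did not, and the vertical spread within a list only separates the symbols. Of the filled symbols 12 of 14 and 17 of 24 lie to the left of 0, where lower calls also outnumbered higher ones over all genes tested, and HKDC1 at 6.59 is the farthest to the right.

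GAPDH was also set beside 12 other genes in common use as references, all tested. With siADAR1 #1, RPLP0, a ribosomal protein, was called lower (log2FC of -0.58, limma, adjusted p = 0.0312), a call that ended when either siControl library (-0.45 and -0.71) or siADAR1 #1 replicate 1 (-0.42) was left out. This call also ended with median-centred or quantile-normalized libraries (-0.44 and -0.42). With siADAR1 #2, 5 of the 12 were called lower, where 15.5% of all genes tested were, among them ACTB, cytoplasmic actin (-0.94, limma, adjusted p = 0.00140), TBP (-1.03, limma, adjusted p = 0.00439), TFRC (-0.67, limma, adjusted p = 0.00465) and PPIA (-0.63, limma, adjusted p = 0.0187). The call of PPIA ended without siControl replicate 1 (-0.41) and when either siADAR1 #2 library was left out (-0.69 and -0.58). With quantile normalization TFRC and PPIA (-0.50 and -0.39) were not called with siADAR1 #2. The other 7 of the 12 included HPRT1, B2M, YWHAZ, RPLP0, GUSB and RPL13A, and had log2FC values from -0.44 for YWHAZ to 0.45 for B2M. The median log2FC of the 12 was -0.21 with siADAR1 #1 and -0.38 with siADAR1 #2. Less the median deviation of these genes, GAPDH deviated from its siControl mean by 0.17 and 0.03 with siADAR1 #1 and by -0.63 and -0.61 with siADAR1 #2. Against ACTB the log2 ratio of GAPDH per kilobase was 0.16 and 0.13 with siControl, 0.39 and 0.34 with siADAR1 #1 and -0.02 and 0.18 with siADAR1 #2. Against RPL13A it was 2.17 and 2.10 with siControl, 2.23 and 2.16 with siADAR1 #1 and 1.10 and 1.08 with siADAR1 #2. The relative level of GAPDH thus depended on the gene it was set against.

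**Figure D5:**
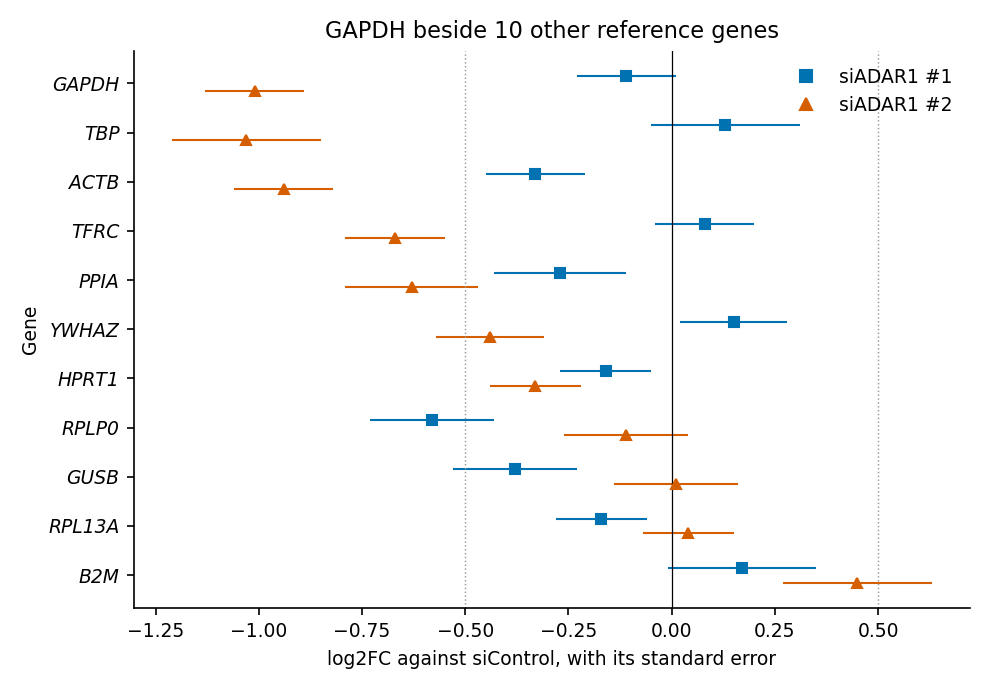
Symbols give the log2FC against siControl of GAPDH and 10 of the 12 reference genes for each siRNA, with bars of 1 standard error and dotted lines at log2FC values of -0.5 and 0.5. With siADAR1 #2, GAPDH (-1.01) lies beside TBP and ACTB (-1.03 and -0.94), and GUSB and RPL13A (0.01 and 0.04) lie close to 0.

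Over the 6 libraries, the genes whose deposited log2 values were most like those of GAPDH among 20857 were PKM (Pearson r = 0.9994), PSRC1 (0.9990), ASRGL1 (0.9985), FBXO3 (0.9985) and GOLPH3 (0.9984). LDHA ranked 427 (0.9788) and ALDOA 487 (0.9760), TPI1 had 0.7688, PFKP 0.5605 and ENO1 0.2340, and HK2, PGK1 and SLC2A1 were at -0.0359, -0.0951 and -0.2521. The genes most like the mean of the other 9 were CDKN2AIPNL (0.9996), RAP1GDS1 (0.9994), HDGF (0.9993), MND1 (0.9991) and OSBPL11 (0.9986), and GAPDH ranked 332 (0.9775). These are descriptions over 6 points in 3 groups of 2 libraries, which share their depth and scaling. Any gene that was clearly lower with siADAR1 #2 alone thus has a high value.

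The 3 tested genes that start nearest to GAPDH on chromosome 12 were ENSG00000269968 at 3858 bp, ENSG00000245667 at 8992 bp and IFFO1 at 21561 bp. With siADAR1 #2 their log2FC values were -0.93, 0.33 and 1.57 (limma, adjusted p = 0.514, 0.642 and 0.0134), so that IFFO1 was called, in the direction opposite to GAPDH. ENO2 starts 379.2 kb away.

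Reads of processed pseudogenes can be exchanged with those of their parents. The table held 65 annotated pseudogenes of GAPDH, 11 of them tested, whose reads summed to 321 to 960 per library, or 0.436% to 0.686% of the GAPDH reads, and GAPDHP35 was the most abundant. The 6 pseudogenes of LDHA, led by LDHAP4, came to 0.532% to 0.718% of its reads, those of the other genes came to less than 0.3%, and PFKP and SLC2A1 had none in the table. How the counting placed reads that match several of these copies is not given in the sources used here.

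The spread between replicates set the precision of all these values. Replicate 2 was below replicate 1 for all 10 genes with siControl, by 0.03 to 0.56 on the log2 scale, against a median difference of -0.07 over all genes tested. With siADAR1 #1, 7 of the 10 were higher in replicate 2 and with siADAR1 #2, 5 were, and the widest difference was that of ALDOA with siADAR1 #2.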

How the data were processed

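Poly(A)+ RNA of Cal62 cells was sequenced by the authors, who trimmed adapters with Atropos, counted reads on GRCh38 genes with featureCounts, also estimated gene counts with Salmon and tximport as their preferred input, normalized with DESeq2 and deposited 1 table of variance-stabilized log2 values (2 columns per sample, 0 left unused, taken as the 2 biological replicates of the methods). Undoing the transformation gave whole reads for 100% of values (tolerance 0.1). The methods call the replicates biologically independent, the labels do not describe separate cultures, and p-values measure the spread between these libraries.

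Differences were fitted to the log2 values in R 4.3.3 with limma 3.58.1 (moderated by eBayes with a trend, 3 groups of 2 libraries), two-sided. Benjamini-Hochberg adjustment ran over 20858 genes whose mean deposited value was at least log2 of 10, which is 7.617 normalized counts. A gene was called at an adjusted p under 0.05 and a log2FC beyond 0.5. With 2 libraries per group the standard errors rest on a spread shared by all groups. In a library 3 reads correspond to 2.81 to 4.39 normalized counts, which covers counting error only. The steps were tested on simulated data.

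The genes, lists and tests were chosen with earlier results of these data known. Named are the 10 genes, ADAR, isoenzymes, reference genes, up to 4 called genes per list and siRNA with the smallest adjusted p and those called with both, the 5 genes most like GAPDH or the other 9, its 3 nearest neighbours and abundant pseudogenes. HIF1A and the genes named for a change with the replicate block were chosen after their values were seen. Symbols (57830 of 58333), exon lengths and starts came from GENCODE release 44, and 8 of the 9 promoter windows used (not that of GAPDH) equal a RefSeq window. A few items are not reported here. The difference between replicates correlated between groups at 0.106, 0.110 and 0.162 over 20858 genes, weakly though all above 0.1. The shared replicate numbers of the columns were therefore treated as possible pairs, and a fit with the replicate as a block was an alternative. Values and calls are from the fit without the block unless stated. The other alternatives were no filter, a filter at 50, median-centred or quantile-normalized libraries, log2 of the normalized count plus 1, voom on the recovered reads, eBayes without a trend or robust, the 4 libraries compared alone, and each library left out.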

Additional observations from a re-analysis of the deposited data

Results flagged for a closer look

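PFKP, the platelet phosphofructokinase, was the 1 gene of the 10 for which every siADAR1 #1 library lay above both siControl libraries (9449 and 10386 against 8061 and 7894 normalized counts) and every siADAR1 #2 library below both (7609 and 7485). The share of all genes tested with such an order was not counted, so nothing is read from this being 1 of 10. The log2FC of siADAR1 #1 minus siADAR1 #2 was 0.39 (standard error 0.10), given without a p-value, since the gene was chosen with results known. It stayed under the log2FC threshold, and passed both thresholds with median-centred libraries (0.52). With quantile normalization the log2FC of PFKP with siADAR1 #2 was 0.07 in place of -0.08, so its direction depended on the scaling. Of the 36 other genes of glucose metabolism in which the siRNAs differed, TXNIP and PDK1 were called in opposite directions by the siRNAs. TXNIP had 1129 and 569 normalized counts with siControl, 352 and 384 with siADAR1 #1 and 2249 and 2678 with siADAR1 #2, a difference of -2.73 on the log2 scale for siADAR1 #1 minus siADAR1 #2 (limma, adjusted p = 0.000479). Its call against siControl with siADAR1 #1 (-1.12) ended without siControl replicate 1 (-0.63), when either siADAR1 #1 library was left out (-1.06 and -1.18), without a trend and with no filter. PDK1 had 515 and 559 normalized counts with siControl, 1058 and 874 with siADAR1 #1 and 393 and 321 with siADAR1 #2, a difference of 1.43 (limma, adjusted p = 0.0009). Its call against siControl with siADAR1 #2 (-0.59) ended with voom, with median-centred or quantile-normalized libraries, with no filter, without a trend and when any siControl or siADAR1 #2 library was left out (-0.74 to -0.45), and its call with siADAR1 #1 (0.84) ended without a trend, when either siControl library was left out (0.78 and 0.90) and without siADAR1 #1 replicate 1 (0.70).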

How the results depend on the processing

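Signs were compared for the 10 genes, the other pathway genes, the reference genes and ADAR. Among these, no value of a called gene changed its sign under the alternatives run. Without a trend in eBayes, siADAR1 #1 against siControl gave 1347 called genes in place of 3502, 0 of the 10 glycolysis genes in place of 1 (ENO1), and 3 of the other pathway genes in place of 14. A filter at log2 of 50 on the deposited scale and the replicate block each gave 2 of the 10 (ENO1 and SLC2A1). Libraries centred on the median put the log2FC of GAPDH at 0.04 with siADAR1 #1 and at 1.02 for siADAR1 #1 minus siADAR1 #2. Quantile normalization gave -0.60 for GAPDH with siADAR1 #2 and 0.57 between the siRNAs, and -0.58 and 0.49 for GAPDH less the median of the other 9. With a library left out, siADAR1 #1 called 392 to 3680 genes, 0 to 1 of the 10 and 1 to 20 of the other pathway genes, with the lowest counts without siControl replicate 1, and siADAR1 #2 called 3150 to 5758 genes. GAPDH then ranged from -0.24 to 0.02 with siADAR1 #1 and from -1.13 to -0.88 with siADAR1 #2, and GAPDH less the median of the other 9 from 0.52 to 0.86 between the siRNAs. Small values of genes that were not called changed sign with the scaling or with a library left out, namely those of TPI1, PKM and LDHA with siADAR1 #1 (0.02, 0.06 and 0.04 at most), and of PGK1, HK2, PFKP and SLC2A1 with siADAR1 #2 (0.10, -0.09, 0.07 and 0.25 at most), and of HK2 (-0.07) and TPI1 (-0.01) between the siRNAs, so these genes have no settled direction there. The cause of these shifts was not tested.

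Of 1387 repeats for called genes outside the 10 (other pathway genes, reference genes and ADAR), 1241 kept direction and call and 146 lost the call. Of 432 repeats for the 9 genes beside GAPDH, 42 moved by more than the spread between replicates. The pairing by replicate number changed the calls given beside the results and, in the other lists, those of PFKFB4 and SLC2A6 (siADAR1 #1, log2FC of 1.01 and 0.57), EPAS1 (siADAR1 #2, 1.07), SLC2A3, SLC2A10 and SLC2A12 (between the siRNAs, -0.91, 0.76 and -0.92), which were called with the block and not without it, and ALDOC (between the siRNAs, 0.91), which was not. It changed no other call of these genes. With 2 libraries per group, depth was not the only limit: ALDOC, HKDC1 and SLC2A4 had low counts and were not tested at a filter of 50.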
